A study of Homo sapiens with 5 samples.

Results

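The genes described here are 35 human genes of glycolysis and of the response to low oxygen, out of 21199 genes listed in any library. They were chosen by symbol: 19 glycolytic enzymes and regulators, 4 transporters of glucose and lactate, and 12 other targets of the hypoxia-inducible factors (HIF). The cells were SW480, a human colorectal cancer line derived from a primary tumor, which carried GFP from a lentiviral vector. They had been injected into the perivitelline space of zebrafish embryos 2 days after fertilization, and the xenograft tumors were dissected at 1 day post injection (1 dpi, 3 libraries numbered 6, 7 and 8) or 4 dpi (2 libraries, 10 and 11). Every group shared the cell line, the GFP label and the host, and no untreated or in vitro cells were among the samples. Tumors of many embryos were pooled before sorting, so the libraries are sorted plates and may be technical replicates of a pool. P-values then measure only the spread between these plates. Zebrafish embryos of this age have innate immune cells such as neutrophils and macrophages but no adaptive immune response.

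Each library was a plate of 384 wells with 1 sorted cell per well, read as counts of unique molecular identifiers (UMIs) near the 3' end of each mRNA. The human UMIs per plate ranged from 4487175 to 7632953. Wells with over 2000 genes and under 25% mitochondrial UMIs were kept, which left 826 cells, 533 of them at 1 dpi. Median UMIs per cell were 25938 to 36197 at 1 dpi and 18823 to 26120 at 4 dpi, and the median mitochondrial share was 10.42 to 12.92% in the 5 libraries. Libraries 6, 7 and 10 are named for one flow cell and libraries 8 and 11 for another, and human UMIs per spike-in UMI split the same way (107.3 to 118.6 against 49.5 to 55.9). In counts scaled to the library total (CPM), colon epithelial markers summed to 4660 to 5720, against 1.25 to 2 for endothelium, 3.96 to 8.18 for leukocytes and 2.64 to 9.41 for HBA1, the one erythroid marker listed in all libraries. The fibroblast marker COL1A1, of 4 the one listed in all libraries, was at 1.47 to 4.09 at 1 dpi and 7.12 to 16.7 at 4 dpi, and its part in the results was not tested. Cells with at least 1 UMI of TOP2A, a topoisomerase of dividing cells, were set apart as TOP2A-detected (290 cells) from TOP2A-zero cells (536 cells). They made up 25.8 to 35.9% of cells at 1 dpi and 42.4 to 43.5% at 4 dpi.

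Glycolysis splits glucose into pyruvate in the cytosol, and many tumor cells reduce that pyruvate to lactate even where oxygen is present. Several of its steps are served by isozymes from different genes, which differ in how they are regulated. When oxygen is low, prolyl hydroxylases of the EGLN family no longer mark HIF-alpha proteins for destruction by VHL. HIF then pairs with ARNT, binds the core letters ACGTG or GCGTG in DNA, and turns on glycolytic genes together with genes for angiogenesis, pH control and mitophagy.

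To show what HIF core letters the moving members carry, the 250 bases before the start site are given for 4 members with a single RefSeq promoter entry (build GRCh38.p14): the largest falls, ANKRD37 and LDHB, and the largest rises, PFKL and EFNA3, among members that passed the test between time points. ANKRD37 lies at chr4:185396591-185396840 on the plus strand, LDHB at chr12:21657843-21658092 on the minus strand, PFKL at chr21:44299803-44300052 on the plus strand and EFNA3 at chr1:155078587-155078836 on the plus strand. Capitals mark ACGTG or GCGTG on either strand, and the letters run 5' to 3' on the gene's strand.
ANKRD37: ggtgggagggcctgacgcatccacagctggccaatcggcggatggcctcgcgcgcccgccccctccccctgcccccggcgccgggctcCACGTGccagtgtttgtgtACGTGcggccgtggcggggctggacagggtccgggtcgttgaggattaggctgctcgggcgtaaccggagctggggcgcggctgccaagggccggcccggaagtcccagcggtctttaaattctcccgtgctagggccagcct
LDHB: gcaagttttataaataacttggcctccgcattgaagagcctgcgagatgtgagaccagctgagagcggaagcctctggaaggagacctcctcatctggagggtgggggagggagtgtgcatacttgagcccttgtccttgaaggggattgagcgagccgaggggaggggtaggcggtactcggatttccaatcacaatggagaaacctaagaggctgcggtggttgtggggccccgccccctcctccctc
PFKL: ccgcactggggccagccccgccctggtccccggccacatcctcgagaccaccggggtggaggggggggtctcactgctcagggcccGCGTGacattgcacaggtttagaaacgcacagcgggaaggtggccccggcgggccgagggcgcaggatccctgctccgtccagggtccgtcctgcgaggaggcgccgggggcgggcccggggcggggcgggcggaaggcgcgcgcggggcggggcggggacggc
EFNA3: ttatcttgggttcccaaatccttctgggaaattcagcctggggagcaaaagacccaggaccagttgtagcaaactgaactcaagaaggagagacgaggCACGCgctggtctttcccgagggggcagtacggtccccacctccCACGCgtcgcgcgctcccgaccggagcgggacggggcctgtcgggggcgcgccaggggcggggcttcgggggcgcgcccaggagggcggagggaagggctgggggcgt
The ANKRD37 window held 3 matches, of which 2 are the same palindrome CACGTG read on both strands. PFKL had 1 match, EFNA3 had 2 and LDHB had 0. Of 35116 RefSeq promoters, 43.2% held such a match in this window, and 34 of the 57 promoters listed for the members did (59.6%, 30 members with an entry). The letters are a description and not evidence of binding.

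Of the 35 members, 31 had enough counts to be tested, all in each comparison. ALDOC, CA9, BNIP3 and EGLN3 are described at the end of this account. Between 1 and 4 dpi, UMIs summed per library over all passing cells were compared with edgeR's quasi-likelihood test, with Benjamini-Hochberg adjustment over 12610 genes and a threshold of 0.05. At 4 dpi, 4 members were higher (GAPDH, TPI1, PFKL and EFNA3) and 7 were lower (HK2, PFKP, PFKFB3, PGK1, LDHB, SLC2A3 and ANKRD37), while 20 did not pass. Across all genes tested, 13.4% were called higher and 14.2% lower, so the 4 and 7 of 31 do not set the members apart by number. The median log2 change was -0.10 over the 31 members and 0 over all genes. All 11 called members had libraries that did not overlap between time points, as did 23 of the 31 members and 54.7% of all genes. The glycolytic enzymes moved in both directions (3 higher and 5 lower of 18), so the pathway did not shift as a block. All 11 kept their direction in both flow cells.

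**Figure D1:**
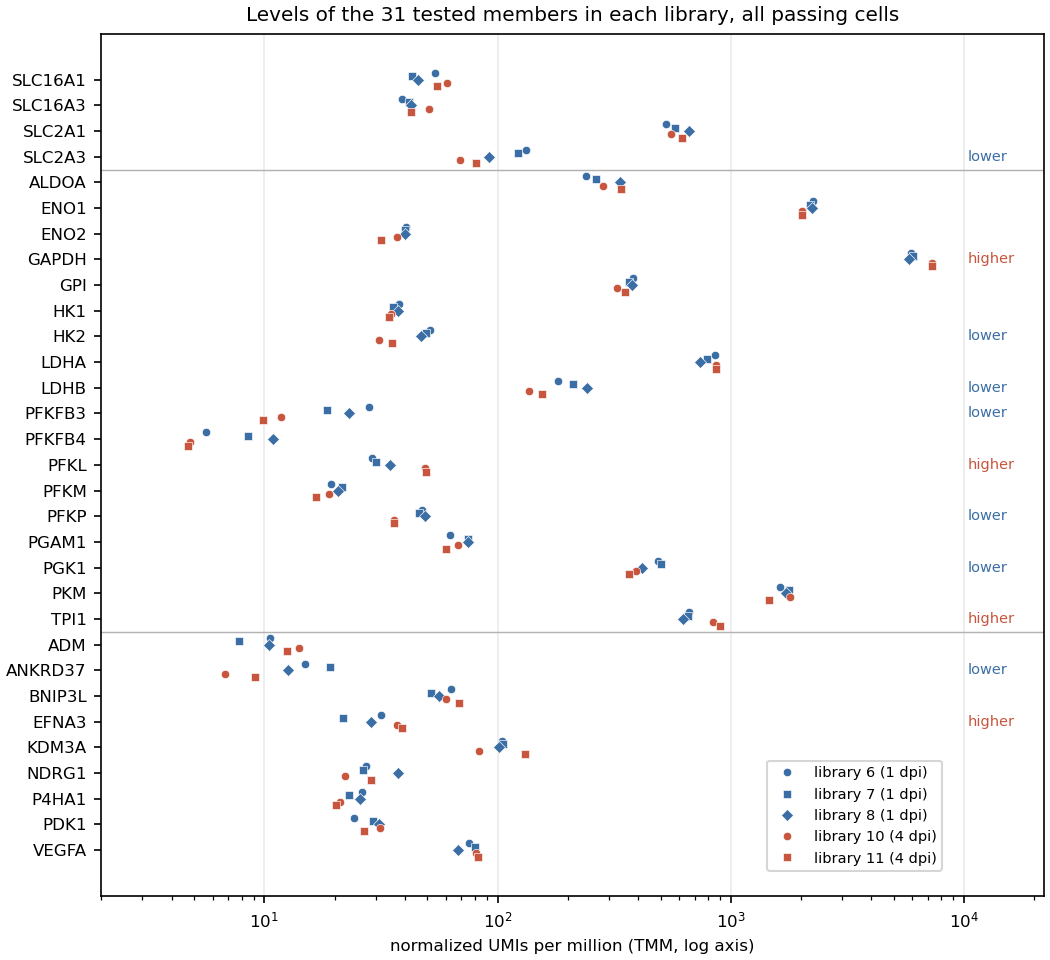
Normalized CPM of the 31 tested members on a log axis, 1 point per library, for transporters (top), glycolytic enzymes (middle) and other HIF targets (bottom), with 1 dpi in blue and 4 dpi in red. The 11 members marked higher or lower had an adjusted p under 0.05, and in each of them the 2 libraries of 4 dpi lie beyond all 3 of 1 dpi.

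Entry of glucose depends on the transporters SLC2A1 (GLUT1) and SLC2A3 (GLUT3). SLC2A1 was at 525.4, 578.1 and 665.3 normalized CPM in the 3 libraries of 1 dpi, given here in the order 6, 7, 8, and at 555.4 and 615.9 in those of 4 dpi, in the order 10, 11. The ranges overlap (log2 change -0.01 ± 0.10 SE, adjusted p = 0.961, edgeR). SLC2A3, a high-affinity transporter, was at 132.8, 121.9 and 92.2 at 1 dpi and at 69.2 and 81 at 4 dpi. Its log2 change was -0.63 ± 0.14 (adjusted p = 0.00427, edgeR). The log2 difference was -0.88 in one flow cell and -0.19 in the other, since library 8 was the lowest of 1 dpi and library 11 the higher of 4 dpi. With a mitochondrial maximum of 15%, the log2 change shrank to -0.28 (adjusted p = 0.198), and with each cell thinned to 5000 UMIs it was -0.50 (adjusted p = 0.0911). The lactate and pyruvate transporters SLC16A1 (MCT1) and SLC16A3 (MCT4) had log2 changes of 0.28 and 0.19 that did not pass (adjusted p = 0.131 and 0.302).

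Hexokinases trap glucose in the cell as glucose 6-phosphate. HK2, the isozyme most often raised in tumors and a known HIF target, was at 51.4, 49.5 and 47 at 1 dpi and at 31 and 35.4 at 4 dpi. The log2 change was -0.58 ± 0.13 (adjusted p = 0.00473, edgeR), and -0.76 with thinned cells (adjusted p = 0.0518). HK1, the housekeeping isozyme, was at 35.5 to 37.9 and then at 34.1 to 35, a log2 change of -0.10 ± 0.13 (adjusted p = 0.614). HK2 therefore made up 57.6, 58.3 and 55.6% of HK1 and HK2 UMIs at 1 dpi and 46.9 and 50.9% at 4 dpi. GPI, the next enzyme of the pathway, did not pass (-0.15, adjusted p = 0.24), although it was called lower with a mitochondrial maximum of 15% (-0.45, adjusted p = 0.0038).

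Phosphofructokinase commits sugar to glycolysis and is encoded by PFKL (liver type), PFKM (muscle type) and PFKP (platelet type). PFKL was at 28.9, 30 and 34.7 normalized CPM at 1 dpi and at 49.1 and 49.2 at 4 dpi. It rose by 0.66 ± 0.13 (adjusted p = 0.00196, edgeR) and stayed called in all 14 alternatives (log2 0.61 to 0.90). PFKP went the other way, from 47.5, 46.1 and 48.7 to 36 and 35.9, a log2 change of -0.40 ± 0.13 (adjusted p = 0.0276, edgeR). That call was lost in 7 of 14 alternatives, among them the removal of any library, with log2 changes of -0.45 to -0.38 throughout. PFKM was at 19.4 to 21.6 and then at 16.7 to 18.9 and did not pass (adjusted p = 0.415).

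As a share of the UMIs of all 3 genes, PFKL rose from 30.2, 30.7 and 33.3% to 47.2 and 48.3%, and PFKP fell from 49.6, 47.2 and 46.9% to 34.6 and 35.3%. The difference was 16.4 percentage points for PFKL and -12.9 for PFKP, against SDs between libraries of at most 1.7 points. Exact 95% binomial intervals, which cover counting error only, were 42.3 to 52.2% for PFKL in library 10 and 29.2 to 37.7% in library 8. Each share gave p = 0.1 in the exact two-sided permutation test, the smallest that 3 against 2 libraries allow, and 0.225 after adjustment over the 9 isozyme shares compared. The same exchange was present in TOP2A-zero cells (PFKL 28.7 to 32.5% and then 47.3 to 50.3%) and in TOP2A-detected cells (29.4 to 34.9% and then 46.7 to 47.2%).

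**Figure D2:**
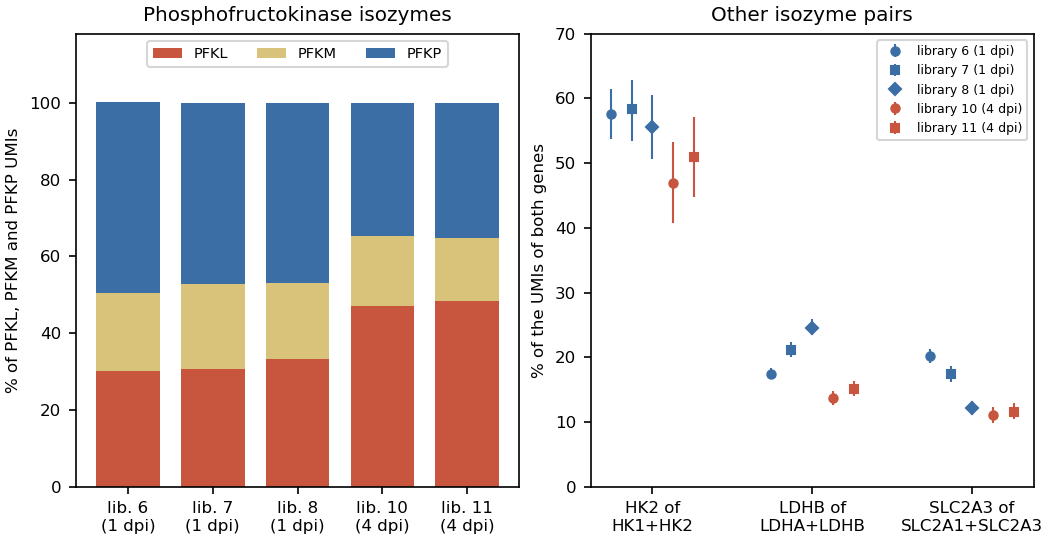
Left, share in percent of PFKL, PFKM and PFKP UMIs taken by each gene in each library, as stacked bars. Right, share in percent of HK2, LDHB and SLC2A3 within their pairs with exact 95% binomial intervals; in each the 4 dpi libraries lie below the 1 dpi libraries, with SLC2A3 at 12.2% in library 8 and 11.6% in library 11.

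PFKFB3 and PFKFB4 make fructose 2,6-bisphosphate, the strongest activator of phosphofructokinase, and both are HIF targets. PFKFB3 was at 28, 18.6 and 23.1 at 1 dpi and at 11.8 and 9.89 at 4 dpi. It had the largest fall among the members tested, a log2 change of -1.11 ± 0.22 (adjusted p = 0.00181, edgeR), and lost its call only with thinned cells (adjusted p = 0.0835) among 14 alternatives. PFKFB4 was at 5.62 to 10.9 and then at 4.69 to 4.78, a log2 change of -0.78 ± 0.34 that did not pass (adjusted p = 0.0975). PFKFB4 passed without library 6 (adjusted p = 0.0306).

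The middle of the pathway split in direction. TPI1, which interconverts the 3-carbon sugars, rose from 661.8, 656.8 and 626.5 to 839.1 and 900.7 (log2 change 0.42 ± 0.08, adjusted p = 0.00179, edgeR) and stayed called in all 14 alternatives. GAPDH, which oxidizes glyceraldehyde 3-phosphate and is often taken as a reference gene, rose from 5931.3, 6061.5 and 5820.7 to 7265.2 and 7275.7 (0.29 ± 0.08, adjusted p = 0.00923, edgeR). Its change was 0.20 with a mitochondrial maximum of 15% (adjusted p = 0.101). PGK1, the first ATP-yielding step and a classical HIF target, was lower at 4 dpi. It was at 487.5, 501.4 and 418.3 and then at 391.3 and 367.6 (-0.31 ± 0.10, adjusted p = 0.0286, edgeR). The adjusted p was 0.0714 when library 6 was left out, 0.114 for library 7, 0.144 for library 11 and 0.0813 with thinned cells.

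Summed over the 18 enzymes listed in all libraries, the level before normalization was 12816 to 12891 CPM at 1 dpi and 14212 to 14264 at 4 dpi. Without GAPDH the sums were 6933 to 7020 and then 6836 to 6976, which overlap. ALDOA, PGAM1, ENO1, ENO2 and PKM had log2 changes of -0.23 to 0.15 and did not pass. ENO1 was at 2181.8 to 2254 at 1 dpi and at 2023.9 and 2024.2 at 4 dpi (-0.14, adjusted p = 0.213), and it passed with a mitochondrial maximum of 15% (-0.26, adjusted p = 0.0455).

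Lactate dehydrogenase is a tetramer of LDHA and LDHB subunits, of which LDHA favours lactate formation and is a HIF target. LDHB was at 181.4, 211.7 and 241.5 at 1 dpi and at 136.9 and 155.1 at 4 dpi (-0.53 ± 0.12, adjusted p = 0.00406, edgeR), a fall that passed in all 14 alternatives. LDHA was at 739.7 to 860.1 and then at 865.7 and 868.9 and did not pass (0.12 ± 0.09, adjusted p = 0.32). The LDHB share of both genes' UMIs was 17.4, 21.2 and 24.6% at 1 dpi and 13.7 and 15.1% at 4 dpi. The groups did not overlap, but the exact permutation p was 0.2.

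Among the other HIF targets, ANKRD37, an ankyrin repeat protein of the HIF program, was at 15, 19.2 and 12.6 at 1 dpi and at 6.8 and 9.11 at 4 dpi. The log2 change was -0.97 ± 0.25 (adjusted p = 0.0098, edgeR). The call did not hold without library 10, with a mitochondrial maximum of 15% or with thinned cells, and the adjusted p reached 0.442. EFNA3, an ephrin ligand, rose from 31.6, 21.8 and 28.6 to 37.2 and 39 (0.47 ± 0.16, adjusted p = 0.0395, edgeR), a call lost in 7 of 14 alternatives.

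VEGFA, the main angiogenic factor, was at 68 to 80.3 and then at 80.8 and 82.5 (0.13, adjusted p = 0.426). BNIP3L, a mitophagy receptor, was at 51.8 to 63.4 and then at 60.4 and 68.5 (0.17, adjusted p = 0.338), and both genes were called higher with a mitochondrial maximum of 15% (VEGFA 0.38, BNIP3L 0.40). NDRG1, P4HA1, PDK1 and ADM had log2 changes of -0.27 to 0.46 and did not pass. KDM3A, a histone demethylase, had a log2 difference of -0.33 in one flow cell and 0.37 in the other. The HIF targets outside glycolysis therefore gave 1 rise and 1 fall in 9 genes.

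The same comparison within the TOP2A classes compares cells of 1 class at a time, since the share of TOP2A-detected cells differed between time points. TOP2A-detected cells were still not alike at 1 and 4 dpi. Of their proliferation genes, MKI67 (log2 change 1.32), CDK1 (0.86) and CCNB1 (0.6) were called higher at 4 dpi. TOP2A (1.38) defines the class, so its own change there is no separate sign of a difference. The depth of these cells also differed, with median UMIs of 33427.5 to 48450 at 1 dpi and 27911.5 and 36330.5 at 4 dpi. PCNA (0.02) and MCM2 (0.14) did not pass. The part of this in the calls of the class was not tested. In TOP2A-zero cells, 1 member was higher (PFKL) and 4 were lower (LDHB, PFKFB3, PGK1 and ANKRD37) of 31, against 8.07% and 8.18% of all genes. In TOP2A-detected cells, 4 were higher (GAPDH, TPI1, PFKL and LDHA) and 3 lower (HK2, LDHB and SLC2A3), against 9.7% and 9.06% of all genes. With a mitochondrial maximum of 15%, LDHB alone of these stayed called in TOP2A-detected cells. BNIP3L and NDRG1, not called in the main fit, were then called higher. PFKL and LDHB were called in both classes, PFKL at 0.64 ± 0.18 and 0.70 ± 0.19 and LDHB at -0.57 ± 0.14 and -0.45 ± 0.16. The removal of library 10 or 11 ended the PFKL call in each class, and that of library 6 ended it in TOP2A-zero cells (adjusted p = 0.0572). With DESeq2 the adjusted p for PFKL was 0.0718 in TOP2A-zero and 0.0528 in TOP2A-detected cells. The PFKL call also ended in TOP2A-zero cells when cells were thinned to 5000 UMIs. HK2 in TOP2A-detected cells (-0.57, adjusted p = 0.0457) lost its call in 9 of 14 alternatives, among them DESeq2, flow cell as a term and the removal of library 6, 7, 10 or 11. LDHB lost its call in TOP2A-zero cells without library 10 (adjusted p = 0.154) and in TOP2A-detected cells without library 7, 8, 10 or 11 (0.0508 to 0.232). In TOP2A-zero cells PFKFB3 missed the threshold without library 10 (adjusted p = 0.0625), PGK1 without library 7 or 11 (0.0604 and 0.137) and ANKRD37 without library 7, 10 or 11 (0.127 to 0.181), all from edgeR. Without library 6, GPI was also called lower in TOP2A-zero cells (-0.41), and EFNA3 (0.82) and SLC16A1 (0.55) were called higher in TOP2A-detected cells.

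**Figure D3:**
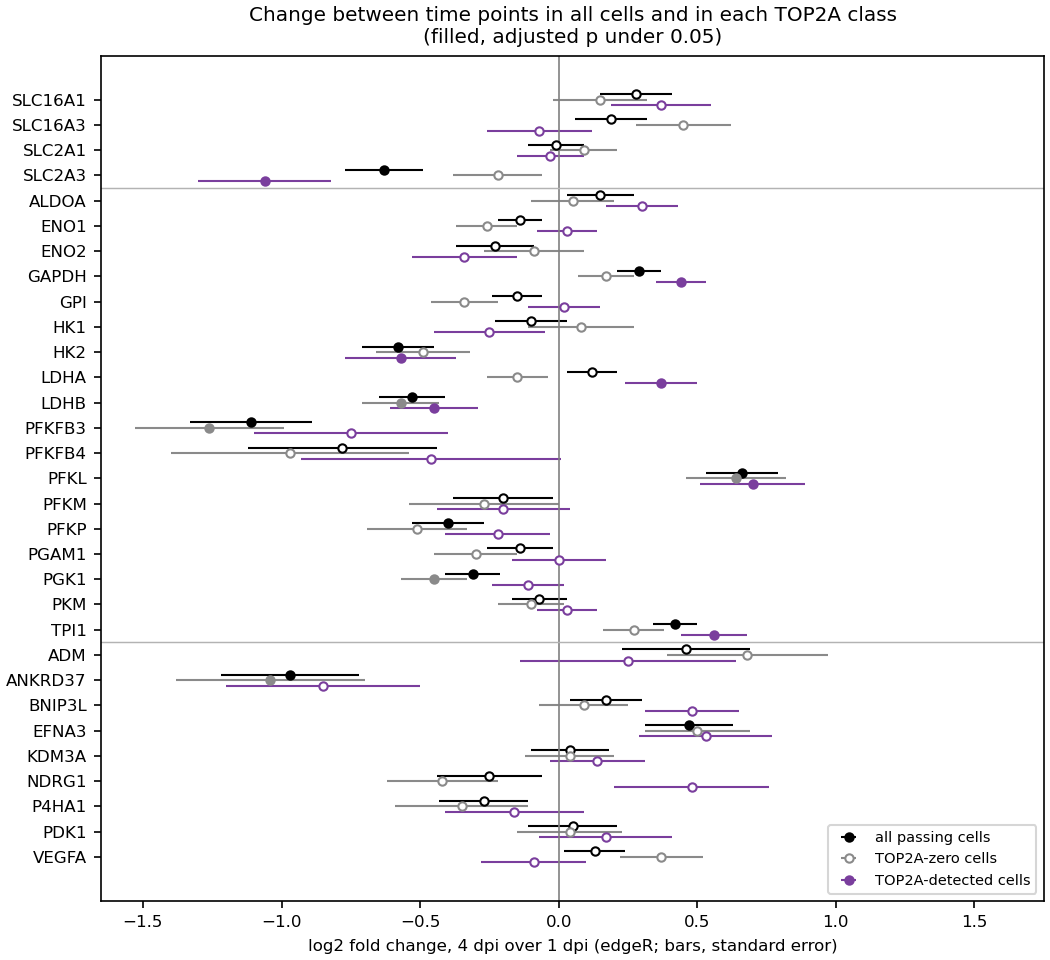
Log2 fold change from 1 to 4 dpi with its standard error for the 31 tested members, in all passing cells (black), TOP2A-zero cells (gray) and TOP2A-detected cells (purple). Filled points passed an adjusted p of 0.05; PFKL (0.64 to 0.70) and LDHB (-0.57 to -0.45) are filled in all 3 fits.

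LDHA was at 966.6, 762.9 and 670.4 in TOP2A-detected cells at 1 dpi and at 996.6 and 1078 at 4 dpi (0.37 ± 0.13, adjusted p = 0.0448, edgeR). In TOP2A-zero cells it was at 775.1 to 808.4 and then at 675.6 and 742.5 (-0.15, adjusted p = 0.381). The call in TOP2A-detected cells was lost in 10 of 15 alternatives, and the log2 change was 0.01 with a mitochondrial maximum of 15%. The median mitochondrial share of TOP2A-detected cells was 10.73 to 11.98% at 1 dpi and 14.12 to 14.39% at 4 dpi. SLC2A3 in TOP2A-detected cells was at 131.8, 151.8 and 61.7 at 1 dpi and at 57 and 55.3 at 4 dpi (-1.06 ± 0.24, adjusted p = 0.00414, edgeR). Library 8 lay close to the libraries of 4 dpi and far from the others of its own group. With DESeq2 the adjusted p was 0.172. The call also ended with thinned cells and with a mitochondrial maximum of 15% (adjusted p up to 0.304, edgeR), and when library 11 was left out. In TOP2A-zero cells SLC2A3 was at 95.6 to 133.8 and then at 83.7 and 111.1, which overlap.

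Whether the change with time differed between the classes was tested as an interaction, in which no member of 31 passed. Of all genes, 0.137% were called higher and 0.0427% lower in that test. The interaction was 0.56 for LDHA (adjusted p = 0.22), -0.77 for SLC2A3 (0.436) and 0.86 for NDRG1 (0.49), all from edgeR. Without library 6, LDHA (0.71, adjusted p = 0.0229) and GAPDH (0.40, adjusted p = 0.0366) passed, so the outcome for these genes turned on that library.

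TOP2A-detected and TOP2A-zero cells of the same libraries were also compared. Of 31 members, 0 were called higher and 4 lower in TOP2A-detected cells (NDRG1, BNIP3L, VEGFA and SLC2A1), against 5.76% and 4.52% of all genes. Each of the 4 was lower in 5 of 5 libraries. None of the 18 enzymes tested passed in either direction, with log2 differences of -0.54 to 0.42. The median over the 9 other HIF targets was -0.26, against -0.02 over all genes.

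NDRG1, a stress gene linked to differentiation and growth arrest, was at 35.7, 36.8, 49.3, 29.7 and 31 in TOP2A-zero cells, in library order. In TOP2A-detected cells it was at 16.3, 14.5, 15.3, 15.9 and 27.8, a log2 difference of -1.04 ± 0.17 (adjusted p = 9.04e-05, edgeR). The smallest gap was in library 11. BNIP3L was at 60.4 to 82.4 in TOP2A-zero cells and at 36 to 59.2 in TOP2A-detected cells, without overlap (-0.56 ± 0.11, adjusted p = 0.00111, edgeR). VEGFA was at 69.8 to 121.6 and 50 to 74, with the ranges overlapping though each library fell (-0.55 ± 0.12, adjusted p = 0.00385, edgeR), and missed the threshold without library 6 (adjusted p = 0.0573). SLC2A1 was at 536.9 to 709.4 and 480.3 to 592.9 (-0.25 ± 0.08, adjusted p = 0.0456, edgeR), a call lost in 8 of 14 alternatives, among them the removal of any library. Other members passed when 1 library was left out: GPI (0.31), TPI1 (0.30) and SLC2A3 (-0.55) without library 7, SLC16A1 (0.43) without library 8 and PFKFB3 (-0.72) without library 10.

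TOP2A-detected cells held more UMIs than TOP2A-zero cells in every library (medians of 27911.5 to 48450 against 15865 to 32246), and their part in these differences was not tested. With every cell thinned to 5000 UMIs and the classes drawn again, 16 to 36 cells per library were TOP2A-detected. VEGFA alone of the 4 was then called (-0.97, adjusted p = 0.0443). NDRG1 (-0.99, adjusted p = 0.445) and SLC2A1 (-0.21, adjusted p = 0.624) had log2 differences about as large as before, and BNIP3L stood at 0.08 (adjusted p = 0.975). When TOP2A-detected cells needed at least 2 TOP2A UMIs, all 4 stayed lower (NDRG1 at -1.29), PFKFB3 and HK2 were also called lower, and LDHA, TPI1, PFKM and SLC16A1 were called higher (adjusted p of 0.038 to 0.0499).

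**Figure D4:**
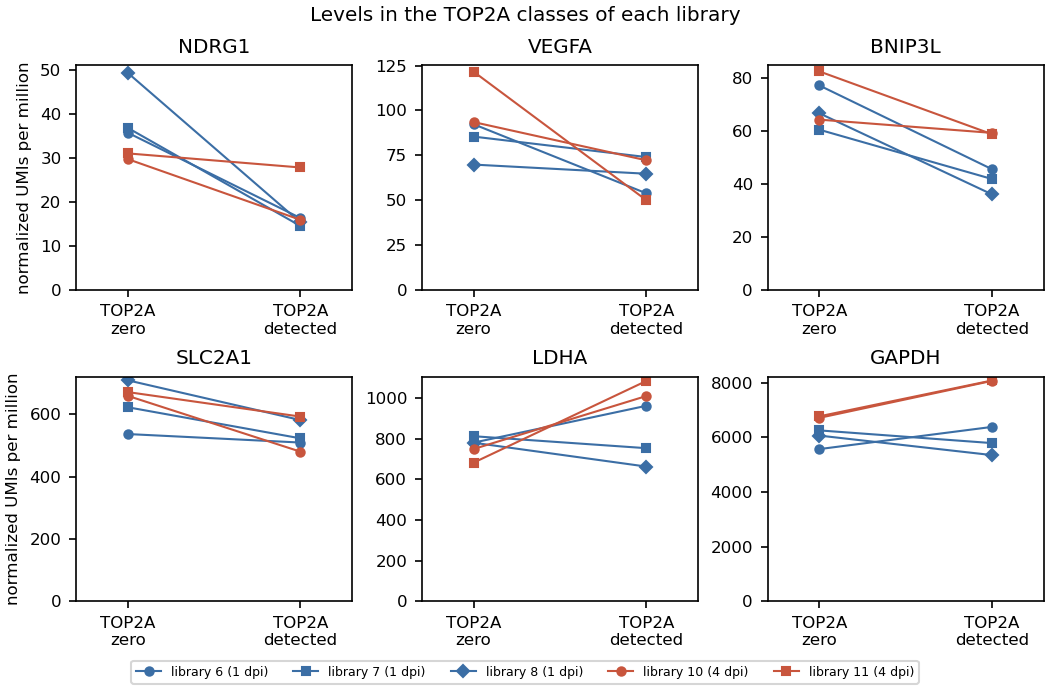
Normalized CPM in TOP2A-zero and TOP2A-detected cells of each library, joined by a line per library (1 dpi blue, 4 dpi red). NDRG1, VEGFA, BNIP3L and SLC2A1 are lower in TOP2A-detected cells in all 5 libraries; LDHA and GAPDH are higher in 3 and lower in 2.

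The share of cells with at least 1 UMI was read after each cell was thinned to 5000 UMIs, which left 815 cells. All cells at both times had a UMI of GAPDH, and 99.3 to 100% had one of ENO1. PFKL was found in 10.6 to 14.4% of cells at 1 dpi and 22.6 to 25.4% at 4 dpi. PFKFB3 was found in 10 to 11.9% and then in 3.08 to 5.66%, and LDHB in 50 to 58.8% and then in 39 to 44.6%. Before thinning, the PFKL shares overlapped (48.7 to 59.2% and 55.3 to 62.9%), while the PFKFB3 shares did not (30.7 to 38% and 14.3 to 19.7%). Of 34 members listed in all libraries, 4 had larger and 8 smaller shares at 4 dpi without overlap, against 18.7% and 15.4% of the 15028 genes kept, many of which had few UMIs. Before thinning the counts were 1 larger and 16 smaller, against 9.02% and 33% of genes, with fewer UMIs per cell at 4 dpi. SW480 was the only cell type sorted, so no share in cells known to lack these genes can be set beside them.

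The spread of a member over cells of a library was read as the ratio of variance to mean at 5000 UMIs. This ratio is 1 for pure counting. It was 5.49 to 8.01 for GAPDH, 2.23 to 3.29 for SLC2A3 and 1.52 to 2 for LDHB. For the same relative spread the ratio grows with the mean, so it does not rank these genes by unevenness. Mean UMIs per cell were 27.7 to 35.6 for GAPDH, 0.269 to 0.607 for SLC2A3 and 0.704 to 1.21 for LDHB. PFKL had ratios of 0.83 to 1.11 at means of 0.119 to 0.292, where a ratio near 1 says little about evenness. SLC2A3 was found in 15.4 to 30% of thinned cells. HK2, in 13.1 to 27% of cells and at means of 0.138 to 0.363, had lower ratios of 0.98 to 1.57.

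In single cells, the summed enzymes and the summed other HIF targets were weakly and negatively related. Spearman's rho between the summed UMIs of the 18 enzymes and of the 12 other HIF targets, of 5000 per cell, was -0.22, -0.11 and -0.12 in the libraries of 1 dpi and -0.42 and -0.41 in those of 4 dpi (815 cells in all). All cells of a library share its preparation, and counts drawn from a fixed total compete with each other. The part of either in these values was not tested. Without GAPDH the values were -0.06 to -0.11 at 1 dpi and -0.41 and -0.28 at 4 dpi. Within TOP2A-zero cells they were -0.04 to -0.18 and then -0.40 and -0.43, and within TOP2A-detected cells -0.23 to -0.29 and then -0.40 and -0.34. Gene by gene, rho with the summed enzymes over all libraries was -0.34 to -0.05 for VEGFA and -0.32 to -0.17 for KDM3A. It was -0.09 to 0.07 for BNIP3L, -0.13 to 0.06 for PDK1 and -0.24 to 0.21 for NDRG1. The remaining targets were not examined one by one.

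Cells with 0 UMIs of the other HIF targets held 82.3 ± 22.1 enzyme UMIs in library 10 and 80.8 ± 23 in library 11 (mean ± SD over cells). Cells with 3 or more held 56.4 ± 20.4 and 57.8 ± 23.1. In the 1 dpi libraries the same means were 65.9 to 70.4 and 54.2 to 61.8. The mitochondrial share moved with this at 4 dpi, from 15.5 and 15% in cells with 0 UMIs to 9.84 and 9.07% in cells with 3 or more, and its part in the relation was not tested. In contrast, the enzyme pairs examined rose and fell together (rho of 0.20 to 0.36 for LDHA with PGK1 and 0.29 to 0.59 for ENO1 with GAPDH). These pairs were drawn from the abundant LDHA, PGK1, ENO1, TPI1, GAPDH and PKM, and pairs of the other enzymes were not examined.

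**Figure D5:**
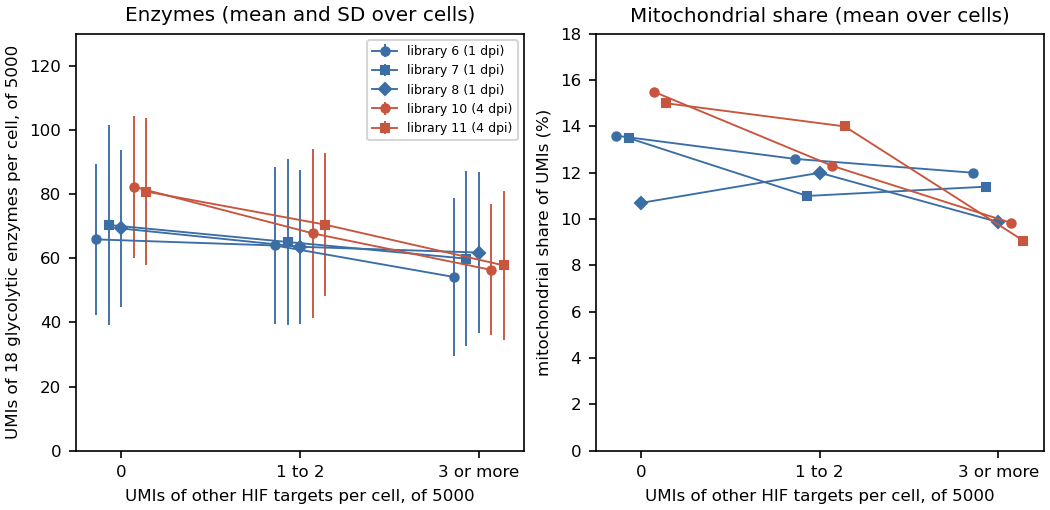
Left, UMIs of the 18 glycolytic enzymes per cell (of 5000, mean and SD over cells) by the number of UMIs of other HIF targets in the same cell, 1 line per library. Right, the mean mitochondrial share in percent of the same cells; at 4 dpi both decline, from 82.3 to 56.4 enzyme UMIs and from 15.5 to 9.84% in library 10.

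Further genes of these pathways, from lists of related genes, are counted against the same 13.4% and 14.2% of all genes. They were read from the main fits only, and the alternatives used for the members were not examined for them. Of the HIF machinery, 2 of 8 tested were higher and 1 lower at 4 dpi. EPAS1 (HIF-2 alpha) was at 3.88, 7.21 and 5.04 and then at 10.3 and 13.8 (1.19 ± 0.30, adjusted p = 0.00737, edgeR). CITED2, which competes with HIF for its coactivators, was at 14.4, 14.2 and 13.4 and then at 29.4 and 27.1 (1.00 ± 0.17, adjusted p = 0.000477, edgeR). EGLN1, the main oxygen-sensing hydroxylase and itself a HIF target, had a log2 change of -0.53 ± 0.11 (adjusted p = 0.00291, edgeR). HIF1A did not pass (0.60, adjusted p = 0.119).

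Among the further HIF targets, DDIT4, an inhibitor of mTORC1 that other stresses also induce, was at 141.5, 162.3 and 149.1 and then at 59.9 and 63.5 (-1.29 ± 0.11, adjusted p = 1.32e-06, edgeR). Of the 24 further HIF targets tested, 2 were higher and 5 lower. AK4 and STC2 each fell by 0.59, and MXI1 rose by 0.46. The chemokine receptor CXCR4 rose by 1.99 at low levels, from 2.01, 2.85 and 1.47 to 8.05 and 8.85. In the step that feeds pyruvate into mitochondria, 2 of 12 were higher and 2 lower. PDP1, the phosphatase that activates pyruvate dehydrogenase, was at 65.7, 50.3 and 71.4 and then at 21.6 and 19 (-1.62 ± 0.17, adjusted p = 9.52e-06, edgeR), and PDP2 fell by 0.85. PDK2, a kinase that inactivates the same enzyme, was at 16.9, 15 and 17 and then at 40.3 and 39.3 (1.29 ± 0.15, adjusted p = 2.63e-05, edgeR), and PDHB rose by 0.37. PDK1, the HIF-responsive kinase among the members, was at 24.3 to 30.9 and then at 26.8 and 31.2 (0.05, adjusted p = 0.831).

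Of 9 further glycolysis enzymes tested, TIGAR, a phosphatase that lowers fructose 2,6-bisphosphate, fell by 0.84 ± 0.11 on the log2 scale, and G6PC3, a glucose 6-phosphatase, rose by 0.58 ± 0.11. Not all of the further genes called between time points were called within each TOP2A class. EGLN1 and AK4 were called in TOP2A-zero cells only, and EPAS1, MXI1 and PDP2 in TOP2A-detected cells only. PDHB was called in neither class, and the other genes named as called passed in both. Between the TOP2A classes, 20 further HIF targets were tested. In TOP2A-detected cells 0 were higher and 3 lower, against 5.76% and 4.52% of all genes. Among those lower, BHLHE40 (-0.29) fell in 5 of 5 libraries. ZNF395 (-0.38) fell in 4 libraries and was higher in library 11, at 79.6 in TOP2A-zero and 89.6 in TOP2A-detected cells.

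CA9, ALDOC, BNIP3 and EGLN3 were below the filter on low counts or, for ALDOC, not listed in library 10. CA9, the membrane carbonic anhydrase that is a standard hypoxia marker, had 13, 7 and 16 UMIs at 1 dpi and 0 and 3 at 4 dpi, in 27 cells in all. Per UMI sequenced, it was 5.27 times as frequent at 1 dpi (exact 95% interval 1.66 to 26.7, counting error only). A count of 0 in library 10 allows up to 0.757 CPM. ALDOC, a brain-type aldolase and HIF target, had 28, 19 and 23 UMIs and then no entry in library 10 and 7 in library 11, a ratio of 4.39 (2.02 to 11.3). Tested without the filter, CA9 had an adjusted p of 0.0405 and ALDOC, in a fit added after its values were seen, of 0.0174 (edgeR). EGLN3 had 15, 5 and 8 UMIs and then 7 and 5, a ratio of 1.02 (0.504 to 2.21). BNIP3 had 8 UMIs at 1 dpi and 4 at 4 dpi, too few to compare, and whether its reads were lost in counting was not tested.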

How the data were processed

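SW480 xenograft cells were profiled by SORT-seq, a plate form of CEL-Seq2, with 1 library per plate (3 at 1 dpi and 2 at 4 dpi). The authors mapped read 2 (60 bases) with BWA to hg38 and deposited UMI counts per gene and well. BWA and hg38 are named in the submitters' processing notes. Groups came from the time in the labels. Wells with over 2000 genes and under 25% mitochondrial UMIs were kept, following the methods of the study. Genes listed in all 5 libraries and seen in at least 10 wells were kept (15028 without spike-ins). Counts were summed per library, or per library and TOP2A class, and tested in R 4.3.3 with edgeR 4.0.16 (TMM, filterByExpr, two-sided quasi-likelihood F-test, adjusted over all genes by Benjamini-Hochberg, threshold 0.05). The levels given are TMM-normalized CPM. Isozyme shares had exact binomial intervals and exact permutation tests. The scripts were tested on simulated data. Cells were sorted singly and no doublet caller was run. The well barcodes are the same 384 in each plate, so they identify no cell across libraries. Alternatives were DESeq2 1.42.0, RLE scaling, no low-count filter, flow cell as a term, other cell filters, cells thinned to 5000 UMIs, at least 2 TOP2A UMIs and the removal of each library.

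The members and lists were chosen with earlier results of these data known. Every member was accounted for, with full statistics for called members whose libraries did not overlap, and up to 3 called rises and 3 falls were named per further list, ties included. Reads shared with processed pseudogenes (GAPDH, PGK1, TPI1, LDHA, LDHB, ENO1 and PGAM1 have many) could be split or lost in counting, so levels of these genes are uncertain, as is the near absence of BNIP3. Antisense transcripts of SLC2A1, SLC16A1 and ENO1 are listed apart with 29 to 178 UMIs. Sequences are from RefSeq GRCh38.p14, which had promoter entries for 30 of 35 members. Some genes of the further lists are not reported here.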

Additional observations from a re-analysis of the deposited data

How the results depend on the processing

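With 3 libraries against 2, a lone library left by a removal was assumed to vary like the other group. Thinning discards UMIs, and 8856 genes were tested in place of 12610, with 572 called higher and 493 lower in place of 1695 and 1789. DESeq2 called 467 genes higher and 552 lower in TOP2A-zero cells (edgeR 948 and 961), 619 and 551 in TOP2A-detected cells (1073 and 1002) and 620 in all between the classes (1119). For other changed calls the cause was not tested. No paired analysis was possible because the groups share no replicate numbers.

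Thinned to 5000 UMIs, 1 member was lower at 4 dpi in all cells. In TOP2A-zero cells 2 were higher (GAPDH and TPI1, not called in the main fit) and 1 lower (LDHB), while PFKL lost its call. In TOP2A-detected cells, where 11 members were tested, 1 was higher (TPI1) and 0 lower. Between the classes 1 was lower. DESeq2 called 0 members higher in TOP2A-zero cells, and 2 higher and 0 lower in TOP2A-detected cells. In all cells a mitochondrial maximum of 15% left the counts at 4 higher and 7 lower, but of partly different members. GAPDH, EFNA3, SLC2A3 and ANKRD37 lost their calls, while VEGFA and BNIP3L were called higher and ENO1 and GPI lower. The same maximum gave 2 higher in TOP2A-zero cells (PFKL and VEGFA). In TOP2A-detected cells it gave 2 higher (BNIP3L and NDRG1, not called in the main fit) and 1 lower (LDHB). GAPDH, TPI1, PFKL, LDHA, HK2 and SLC2A3 lost their calls there. No mitochondrial maximum gave 2 higher in TOP2A-zero cells. At least 2 TOP2A UMIs gave 4 higher between the classes. BNIP3L between the classes turned to 0.08 in thinned cells. Leaving out 1 library gave 3 to 4 members higher and 5 to 6 lower in all cells, 0 to 1 and 1 to 5 in TOP2A-zero cells, 2 to 6 and 0 to 2 in TOP2A-detected cells, 0 to 2 and 2 to 4 between the classes, and 0 to 2 and 0 in the interaction.

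Differences in isozyme share, in percentage points from 1 to 4 dpi, moved to -17.3 for HK2, 19 for PFKL, 0.272 for PFKM and -19.2 for PFKP in thinned cells. With a mitochondrial maximum of 15% they moved to 18.2 for PFKL, -5.74 for PFKM and 0.266 for ENO2. Without thinning, 1 member had a larger and 16 a smaller share of cells with a UMI at 4 dpi without overlap (9.02% and 33% of all genes). Leaving out 1 library gave 5 to 8 and 9 to 15. All other settings left these counts within 1.5 times and these shares within the spread between libraries.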
